A study of Mus musculus with 4 samples.

Results

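The cells described here are the 95 lung cells that fit a rule for conventional dendritic cells, out of 22258 kept cells in 4 single-cell libraries. A member held at least 3 UMIs (unique molecular identifiers, counted RNA molecules) summed over Ccl17, Cd207, Flt3, Cd209a and Zbtb46. It also held fewer than 5 UMIs of the complement genes C1qa, C1qb and C1qc, fewer than 4 of T cell genes, fewer than 3 of B cell genes, and under 0.4% of UMIs from the alveolar macrophage genes Chil3, Ear1, Ear2, Fabp1, Lpl and Plet1. Kept cells passed limits of 1000 UMIs, 500 genes and no more than 10% of UMIs from mitochondrial genes. The libraries were HER2 early (MMTV-HER2 mice, 16 weeks), wildtype early (FVB mice, 16 weeks), HER2 late (MMTV-HER2 mice, 32 weeks) and wildtype late (FVB mice, 32 weeks), with 1 library per group. All mice were female, and in MMTV-HER2 mice the promoter of the mouse mammary tumour virus drives the oncogene HER2. This promoter is active mainly in mammary epithelium. The submitters define the late stage by palpable tumours, and the cells were sorted as lung macrophages after collagenase digestion. The number of mice behind each library and the sort gate are not given in the sources used here. Since each group is 1 library, none of the differences could be tested or checked in a replicate, and every interval covers counting error only.

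Conventional dendritic cells take up antigen in tissue, carry it to lymph nodes and present it to T cells. The type 1 cells (cDC1) depend on the transcription factors Irf8 and Batf3, carry Xcr1 and Clec9a, and are known for handing antigen to CD8 T cells on MHC class I. The type 2 cells (cDC2) depend more on Irf4, carry C-type lectins such as Cd209a and Mgl2, and mainly address CD4 T cells on MHC class II. Cells of either type can mature, gain Ccr7 and leave for the lymph node. Langerin, the lectin encoded by Cd207, marks Langerhans cells of the skin and also cDC1 of the mouse lung. Ccl17 encodes a chemokine that attracts T cells through Ccr4.

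The promoter windows of Cd207 and Ccl17 are shown because both genes chose cells and are followed across them below. Both run from 250 bases before to 50 bases after the start of the gene and come from RefSeq on GRCm38.p6, 5′ to 3′ on the strand of the gene. Capitals mark the single motif match found. The Cd207 window lies at chr6:83677808-83678107 on the minus strand, and the Ccl17 window at chr8:94810203-94810502 on the plus strand.
Cd207: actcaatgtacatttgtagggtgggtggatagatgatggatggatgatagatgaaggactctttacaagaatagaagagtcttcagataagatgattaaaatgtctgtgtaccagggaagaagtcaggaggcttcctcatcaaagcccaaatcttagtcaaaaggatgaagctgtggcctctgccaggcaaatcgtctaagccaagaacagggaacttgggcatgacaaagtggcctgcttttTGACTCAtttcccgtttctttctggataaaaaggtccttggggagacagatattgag
Ccl17: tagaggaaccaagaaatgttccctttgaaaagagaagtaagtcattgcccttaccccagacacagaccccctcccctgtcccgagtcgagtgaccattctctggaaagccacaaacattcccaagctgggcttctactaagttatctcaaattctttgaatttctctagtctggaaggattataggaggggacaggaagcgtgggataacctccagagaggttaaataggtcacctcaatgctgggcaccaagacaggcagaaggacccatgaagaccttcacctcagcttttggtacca
Both strands were searched for 4 motifs. The AP-1 motif TGANTCA, of the kind Batf3 and its partners bind, matched as TGACTCA in the Cd207 window, at bases -7 to -1 before the start, and it is found in 7.81% of 32851 windows of this length. The composite of PU.1 and interferon regulatory factors (GGAA, 2 free bases and GAAA, 2.72% of windows), the tandem interferon regulatory factor motif (GAAA, 2 free bases and GAAA, 3.44%) and the NF-kB motif (GGGA, 4 free bases and CC, 20.7%) had no match in the Cd207 window. None of the 4 motifs matched in the Ccl17 window. The tandem and composite motifs share letters, so one stretch can match both.

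Kept cells numbered 5126 in HER2 early, 5449 in wildtype early, 6554 in HER2 late and 5129 in wildtype late, with median depths of 3801 to 4478 UMIs. The dendritic cells were deeper, with medians of 9409, 10015, 11171.5 and 6758.5 UMIs in the same order. Summed over the cells of a library they gave 348896, 218420, 295874 and 157671 UMIs, so 1 UMI was worth 2.87, 4.58, 3.38 and 6.34 CPM (counts scaled to a total of 1e6 UMIs over these cells). The level that 3 UMIs give, used as the floor, was 8.60, 13.7, 10.1 and 19.0 CPM. Any pair of libraries shared 1 to 13 barcodes among kept cells. No dendritic cell barcode was shared between libraries as a member, and 1 was also a kept cell of another library.

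The label was checked against marker lists, which did not bear it out equally for all of the cells. The 6 conventional markers outside the rule summed to 553, 531, 761 and 679 CPM in HER2 early, wildtype early, HER2 late and wildtype late, against 157 to 231 CPM in C1q-positive cells, 453 to 568 CPM in alveolar macrophages and 289 to 763 CPM in free RNA (barcodes with 10 to 100 UMIs, which hold RNA that leaked from cells), so their sum does not set these cells apart. Itgax (CD11c) had 106, 151, 149 and 178 CPM, against 261 to 327 CPM in alveolar macrophages and 203 to 532 CPM in free RNA. Dpp4 had 123, 82.4, 145 and 146 CPM, against at most 0.474 CPM in alveolar macrophages and 6.74 CPM in free RNA, and Kit 103, 91.6, 81.1 and 108 CPM, against at most 1.01 and 4.27 CPM. Not all of the 6 are given singly, and those given are not set against C1q-positive cells here. Genes of MHC class II and its loading took a median of 5.10% of UMIs in the cells rich in cDC1 markers and 6.99% in those poor in them. Over all members they summed to 47260, 56470, 43860 and 48470 CPM, in the library order above. C1q-positive cells had 44980 to 55380 CPM and alveolar macrophages 3513 to 4232 CPM, so this sum does not set the members apart from C1q-positive cells. By limits set after seeing the data, 55 cells held at least 0.3% of their UMIs in 15 cDC1 markers and are called cDC1-high, and 28 held less and are called cDC1-low. These are ranges of a score, not cell types, and 6 cells lay between 0.2 and 0.4%. A further 4 cells held 50 or more UMIs of mature dendritic cell markers, and 1 held 165 UMIs of plasmacytoid dendritic cell markers.

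The remaining 7 cells held 58 to 345 UMIs of the endothelial markers Pecam1, Cdh5, Cldn5, Egfl7 and Ramp2, while no other member held more than 5. In 5 of these 7 the rule was met by Zbtb46 alone, a gene that endothelial cells also express, and 2 had over 1% of UMIs in MHC class II genes. They numbered 3 in HER2 early, 0 in wildtype early, 2 in HER2 late and 2 in wildtype late, and the main counts of genes below are also given without them. Fibroblast markers reached 20 UMIs in 6 members, with 2 in HER2 early, 0 in wildtype early, 1 in HER2 late and 3 in wildtype late. Their sums were 1754, 9.16, 608 and 837 CPM in that order, against 91.5 to 606 CPM in C1q-positive cells. Such cells were kept in the marker ranges. A cDC1-low cell of HER2 early held 562 fibroblast marker UMIs and a cDC1-high cell of HER2 late 176. A HER2 late cell with endothelial markers also held 89 UMIs of NK cell markers. Summed monocyte markers had 409 to 884 CPM, against 2784 to 3216 CPM in C1q-positive cells. The alveolar macrophage markers outside the rule had 12.7 to 50.4 CPM, against 839 to 1011 CPM in alveolar macrophages. Neutrophil markers had 0 UMIs in 3 of the 4 libraries. No doublet caller was run, so a cell with markers of 2 types may be a doublet.

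**Figure D1:**
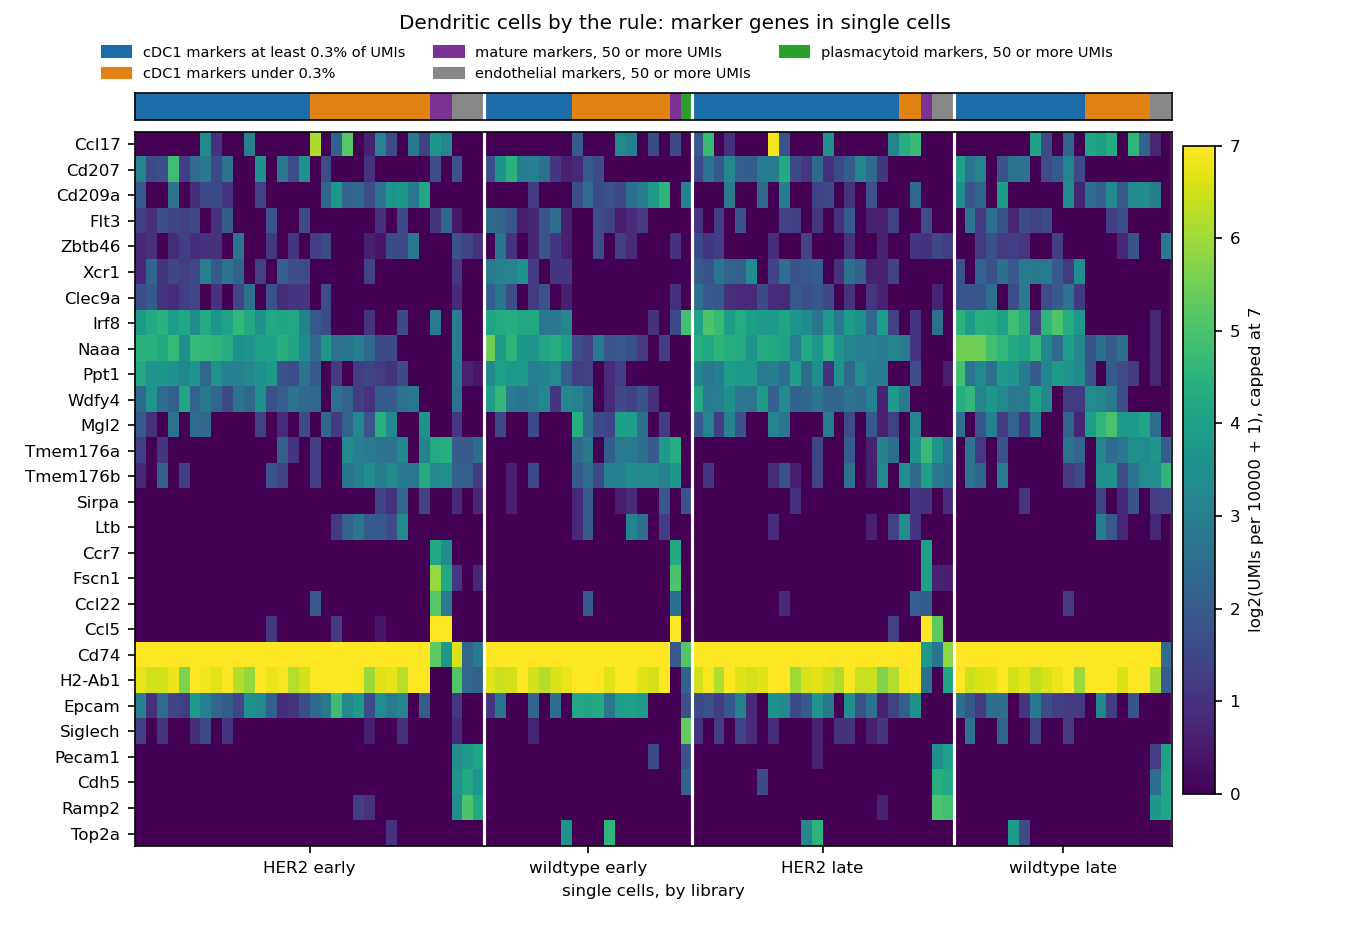
Level of 28 marker genes in each of the 95 cells, as log2(UMIs per 10000 + 1) capped at 7. Columns are cells grouped by library (HER2 early, wildtype early, HER2 late, wildtype late) and, under the coloured bar, by marker range. Xcr1, Clec9a and Irf8 fill the cDC1-high cells, Tmem176a and Tmem176b the cDC1-low cells, Ccr7 and Fscn1 the 4 mature cells, and Pecam1, Cdh5 and Ramp2 the 7 cells with endothelial markers.

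The 5 rule genes chose the cells, so their levels are given as a description. Ccl17 had 131 UMIs in 13 of 32 cells of HER2 early, 36 UMIs in 5 of 19 cells of wildtype early, 232 UMIs in 9 of 24 cells of HER2 late and 64 UMIs in 9 of 20 cells of wildtype late. That is 376, 165, 784 and 406 CPM, but single cells carried much of it. One HER2 late cell held 135 of the 232 UMIs, and without it that library had 341 CPM. Without the richest cell of each, the other libraries had 240, 86.0 and 307 CPM, in HER2 early, wildtype early and wildtype late. Ccl17 was thus highest in HER2 late with all cells, and within 1.5-fold between the late libraries without the richest cell of each.

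Cd207 had 102 UMIs in 17 cells of HER2 early, 82 in 11 of wildtype early, 101 in 18 of HER2 late and 40 in 10 of wildtype late, which is 292, 375, 341 and 254 CPM. Without the richest cell of each library the levels were 210, 215, 275 and 229 CPM, closer together than those of Ccl17. Cd209a, a lectin related to human DC-SIGN, had 255, 284, 108 and 400 CPM and was lowest in HER2 late. Flt3, the receptor for the growth factor that maintains dendritic cells, had 77.4, 119, 71.0 and 101 CPM, with at most 5 UMIs in any cell. Zbtb46, a repressor that marks the conventional lineage, had 94.6, 73.3, 64.2 and 88.8 CPM.

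The share of cells with a UMI is likewise set in part by the rule, which asked for UMIs of these genes, so its contrast with macrophages is a description and no evidence of expression. Cd207 was seen in 53.1, 57.9, 75.0 and 50.0% of the dendritic cells of HER2 early, wildtype early, HER2 late and wildtype late. Of alveolar macrophages 0 to 0.0890% had a Cd207 UMI. Ccl17 was seen in 40.6, 26.3, 37.5 and 45.0% of the dendritic cells, against 0.0717 to 0.160% of alveolar macrophages. After thinning each cell to 2000 UMIs, which left out 1 dendritic cell of HER2 early, Cd207 remained in 29.0, 26.3, 45.8 and 30.0% and Ccl17 in 29.0, 10.5, 25 and 30.0% of the dendritic cells. C1q-positive cells, the other antigen-presenting population here, had a Cd207 UMI in 2.86 to 6.77% and a Ccl17 UMI in 0.672 to 3.47%.

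How often Cd207 and Ccl17 met in a cell depends on the rule too, since a cell low in one of the 5 genes had to enter through another. Over the 88 members without endothelial markers, 42 had UMIs of Cd207 alone, 22 of Ccl17 alone, 13 of both and 11 of neither. Of the 42 with Cd207 alone, 39 were cDC1-high, while of the 22 with Ccl17 alone, 17 were cDC1-low, 3 cDC1-high and 2 mature. Of the 13 with both, 10 were cDC1-high. In HER2 late 6 cells had both genes, 3 Ccl17 alone and 12 Cd207 alone. There 7 of the 9 Ccl17 cells and 202 of 232 Ccl17 UMIs were cDC1-high, 135 of them in 1 cell. That library had 19 cDC1-high and only 2 cDC1-low cells, and Ccl17 was seen in 7 and in 2 of them. Pooled over the libraries, Ccl17 had 233 UMIs in cDC1-high and 212 in cDC1-low cells. Seen from the ranges, Cd207 was found in 49 of 55 cDC1-high cells and in 5 of 28 cDC1-low cells, and Ccl17 in 13 of 55 cDC1-high and 19 of 28 cDC1-low cells. Cd209a had UMIs in 21 of 55 cDC1-high and 26 of 28 cDC1-low cells.

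**Figure D2:**
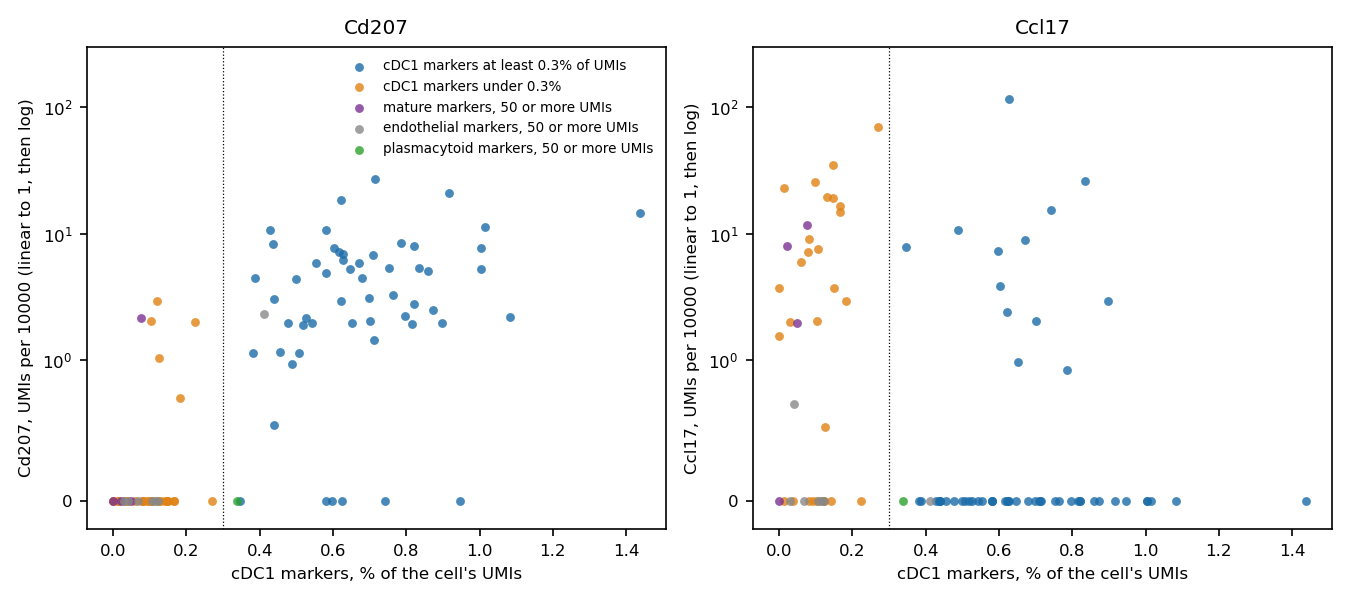
Cd207 (left) and Ccl17 (right) in UMIs per 10000 of each of the 95 cells, on an axis that is linear to 1 and logarithmic above, against the share of the cell's UMIs in cDC1 markers. The dotted line is the 0.3% limit between cDC1-high and cDC1-low cells. Of the 56 cells with Cd207 UMIs 50 lie at or right of it, and of the 36 with Ccl17 UMIs 13 do.

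The cDC1-high cells numbered 16 in HER2 early, 8 in wildtype early, 19 in HER2 late and 12 in wildtype late. Of 12 measured genes of MHC class I and cross-presentation, 5 were higher in them than in the cDC1-low cells of the same library in 4 of 4 libraries, 0 were lower in 4 of 4 and 7 were mixed, beside 13.5% higher and 11.4% lower in 4 of 4 over the 1217 genes whose mean over the 4 libraries reached 100 CPM. The 5 were Psmb8, Psmb9, Tapbp, Pdia3 and Wdfy4, the last of which is one of the markers that set the range. Psmb8, an immunoproteasome subunit, had 812, 1008, 829 and 779 CPM in the cDC1-high cells of HER2 early, wildtype early, HER2 late and wildtype late, against 493, 397, 648 and 181 CPM in the cDC1-low cells. Psmb9, its partner subunit, had 432, 806, 502 and 238 CPM, against 119, 94.0, 162 and 136 CPM. Tap1, under that level and thus not counted, carries peptides into the endoplasmic reticulum and had 85.1, 106, 119 and 108 CPM, against 45.6, 31.3, 0 and 22.7 CPM. B2m, the light chain of class I, lay the other way in 3 of 4 libraries, with 930, 1142, 1170 and 1288 CPM, against 1479, 1337, 648 and 1904 CPM. Psmb10 was lower in the cDC1-high cells in 3 of 4 libraries, and H2-D1 and Calr in 2 of 4. The cDC1-low cells of HER2 late were only 2, so single UMIs set their values, and the groups of cells were formed from UMIs of the same libraries.

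Among the range's own markers, Xcr1 had 242, 499, 285 and 476 CPM in the cDC1-high cells of HER2 early, wildtype early, HER2 late and wildtype late, against 27.4, 0, 0 and 0 CPM in the cDC1-low cells. Irf8, the transcription factor on which cDC1 depend, had 1539, 1439, 1340 and 1883 CPM, against 63.9, 10.4, 81.0 and 0 CPM. Naaa, a lysosomal amidase, was the most abundant, with 1859, 1814, 1353 and 1991 CPM, against 338, 219, 243 and 295 CPM. Outside that list, Cd24a had 242, 259, 370 and 281 CPM, against 110, 41.8, 0 and 68.0 CPM. Havcr2 (TIM-3) and the costimulator Cd86, the 2 measured genes of the costimulator and checkpoint list, were higher in 4 of 4 libraries. So were 13.5% of all genes measured. Icosl and Tgfb1, named after their values were seen, were lower in 3 of 4.

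The cDC1-low cells numbered 11 in HER2 early, 9 in wildtype early, 2 in HER2 late and 6 in wildtype late. Of 6 cDC2 markers measured, 4 were lower in the cDC1-high cells in 4 of 4 libraries, Cd209a of the rule among them. A further 1 was higher in 4 of 4, beside 11.4% lower and 13.5% higher over the 1217 genes measured. The higher one was Clec12a, an inhibitory lectin, with 177, 173, 302 and 325 CPM in the cDC1-high cells, against 137, 73.1, 243 and 181 CPM in the cDC1-low cells, and Klf4 and Notch2 were higher in the cDC1-high cells in 3 of 4. Mgl2 (CD301b, a galactose-binding lectin) had 157, 38.4, 255 and 238 CPM in the cDC1-high cells of HER2 early, wildtype early, HER2 late and wildtype late, against 867, 878, 567 and 1768 CPM in the cDC1-low cells. Tmem176b had 58.9, 38.4, 132 and 152 CPM, against 694, 679, 567 and 567 CPM. Among list genes under 100 CPM in the mean, Ltb, encoding lymphotoxin beta, had 0, 0, 12.8 and 0 CPM, against 301, 188, 324 and 159 CPM. Sirpa, a surface receptor that cDC2 carry, had at most 10.8 CPM in cDC1-high cells, against 73.1 to 100 CPM in cDC1-low cells. Irf4, the cDC2 transcription factor, was low, with 49.7 CPM over the cDC1-low cells of all libraries and 3.42 CPM over the cDC1-high cells. The 14 cDC2 markers outside the rule summed to 2975, 3051, 2674 and 3990 CPM in the cDC1-low cells, in the same library order. In C1q-positive cells they had 3226 to 3684 CPM, so their sum does not set the cDC1-low cells apart from these.

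Of 12 measured genes of MHC class II and its loading, 6 were lower in cDC1-high than in cDC1-low cells in 4 of 4 libraries. In the other direction 0 were higher in 4 of 4. Over all 1217 genes measured, 11.4% were lower and 13.5% higher in 4 of 4. Cd74, the invariant chain that guides class II molecules, had 29100, 24150, 26700 and 26130 CPM in the cDC1-high cells of HER2 early, wildtype early, HER2 late and wildtype late, against 37410, 40360, 57050 and 40850 CPM in the cDC1-low cells. Ctss, the protease that trims it, had 498, 288, 379 and 509 CPM, against 1059, 1024, 1540 and 1020 CPM. H2-Aa, H2-Ab1, H2-DMb2 and Ifi30 (a thiol reductase of the antigen-processing compartment) lay the same way in 4 of 4 libraries. H2-DMb2 shares sequence with other transcripts at its 3′ end, so its counts are uncertain.

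The 88 cells were also divided by Cd207 UMIs. Since Cd207 is a rule gene, cells without it had entered through the other 4, so this split is partly fixed by the rule and gives no separate support to the marker ranges. Of 1217 genes whose mean over the 4 libraries reached 100 CPM, 168 (13.8%) were higher in cells with Cd207 in 4 of 4 libraries and 122 (10.0%) lower. Of the 11 cDC1 markers measured, 10 were higher in 4 of 4 libraries, and of 5 cDC2 markers 3 were lower and 1 (Clec12a) higher. Rab7b, Xcr1, Ckb, Irf8, Rtl8a and Naaa led the higher genes and S100a4, Wfdc17, Ctsc, Tmem176b and Fcgr2b the lower ones. For Ccl17, 98 genes (8.05%) were higher in 4 of 4 libraries in cells with it and 111 (9.12%) lower. Mgl2, S100a4, Wfdc17, Ctsc and Tgfbr1 led the higher genes, while 4 of 11 cDC1 markers were lower and 0 higher. Of 5 cDC2 markers 1 was higher (Mgl2) and 1 lower (Klf4) in 4 of 4 libraries. Cells with and without these UMIs were not matched in depth.

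Epcam and Cldn1, surface genes known from Langerhans cells, were found too, so Cd207 was not alone among genes of that kind. Epcam had 465, 134, 438 and 216 CPM in the cDC1-high cells of HER2 early, wildtype early, HER2 late and wildtype late, against 831, 1128, 892 and 181 CPM in the cDC1-low cells. It had UMIs in 72 of 95 cells. Mfge8 had at most 21.6 CPM in cDC1-high cells, against 31.3 to 405 CPM in cDC1-low cells. Epcam and Mfge8 were higher in the cDC1-low cells in 3 and in 4 of 4 libraries, while Cd207 was higher in the cDC1-high cells in 4 of 4.

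The 4 cells with mature markers, 2 in HER2 early, 1 in wildtype early and 1 in HER2 late, held 75 to 277 UMIs of those markers, against at most 24 in any other member. Ccr7, Fscn1, Ccl22 and Il12b are among the markers that chose these cells, so their place there is partly fixed and is a description. All 53 UMIs of Ccr7, the receptor that leads dendritic cells to lymph nodes, lay in these cells, with 5 to 18 per cell. They held 109 of 116 UMIs of Fscn1, an actin-bundling protein of dendrites, and 43 of 52 UMIs of Ccl22, the other ligand of Ccr4. Ccl5, a T cell attracting chemokine, had 148 to 458 UMIs per cell in them and 95% of its UMIs in all members. Ccl17 in contrast had 17 of its 463 UMIs there. MHC class II genes took 0.235 to 0.744% of their UMIs, under the lowest value of any cDC1-high cell, which was 2.52%. Il12b, a subunit of interleukin 12, had 4 UMIs in all, in 2 of these cells.

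Set beside the macrophages of the same libraries, other genes stood out, and this too is a description since the rule separated these cells. The 25 genes with the highest smallest ratio over C1q-positive cells and over alveolar macrophages were led by Sept3, Btla, Ifi205, Cldn1 and Id2. Btla, an inhibitory receptor of lymphocytes that dendritic cells also carry, had 189, 188, 267 and 304 CPM in the dendritic cells of HER2 early, wildtype early, HER2 late and wildtype late, against 12.1 to 19.0 CPM in C1q-positive cells and at most 0.449 CPM in alveolar macrophages. Id2, a repressor needed for dendritic cell development, had 631, 742, 848 and 552 CPM, against 79.9 to 133 CPM in C1q-positive cells and 76.0 to 106 CPM in alveolar macrophages. H2-Oa, which modulates peptide loading on class II, had 155, 234, 176 and 140 CPM, against 8.23 to 22.0 CPM and 1.96 to 2.78 CPM. Among adhesion genes, Itgae (CD103) had 158, 115, 166 and 241 CPM and Itgb7, its partner chain, 189, 266, 193 and 292 CPM. The migration receptor Ltb4r1, the aspartic protease Napsa, Slamf7 and the transcriptional corepressor Cbfa2t3 were also among the 25.

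The dendritic cells made up 0.624% of kept cells in HER2 early (32 of 5126, exact 95% interval 0.427 to 0.88), 0.349% in wildtype early (19 of 5449, 0.210 to 0.544), 0.366% in HER2 late (24 of 6554, 0.235 to 0.544) and 0.390% in wildtype late (20 of 5129, 0.238 to 0.602). The ratio of HER2 to wildtype was 1.79 at 16 weeks (exact interval 0.984 to 3.34) and 0.939 at 32 weeks (0.497 to 1.79). The ratio of late to early was 0.587 in HER2 mice (0.331 to 1.03) and 1.12 in wildtype mice (0.567 to 2.22). Thinning each cell to 2000 UMIs before the rule was applied gave 1.10 at 16 weeks, and a mitochondrial limit of 5% gave 0.588 at 32 weeks. Each interval above included 1, which does not show that the shares were alike. A macrophage sort with a gate that is not given can set these shares. A further 93 kept cells had 3 or more UMIs of the rule genes but failed another part of the rule, 82 of them for C1q.

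Within the conventional cells, cDC1-high cells were 16 of 27 in HER2 early (59.3%, exact 95% interval 38.8 to 77.6), 8 of 17 in wildtype early (47.1%, 23.0 to 72.2), 19 of 21 in HER2 late (90.5%, 69.6 to 98.8) and 12 of 18 in wildtype late (66.7%, 41.0 to 86.7). The share was thus highest in HER2 late, and its interval overlapped those of the other libraries. At the edge of the rule, 17 members held exactly 3 UMIs of the rule genes, of which 9 were cDC1-high and 4 had endothelial markers. Of the 31 cells with 2 such UMIs that met the rest of the rule, 10 had cDC1 markers at or above 0.3% and 15 had endothelial markers, and their median MHC class II share was 0.242%, against 4.18% in the cells with 3.

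**Figure D3:**
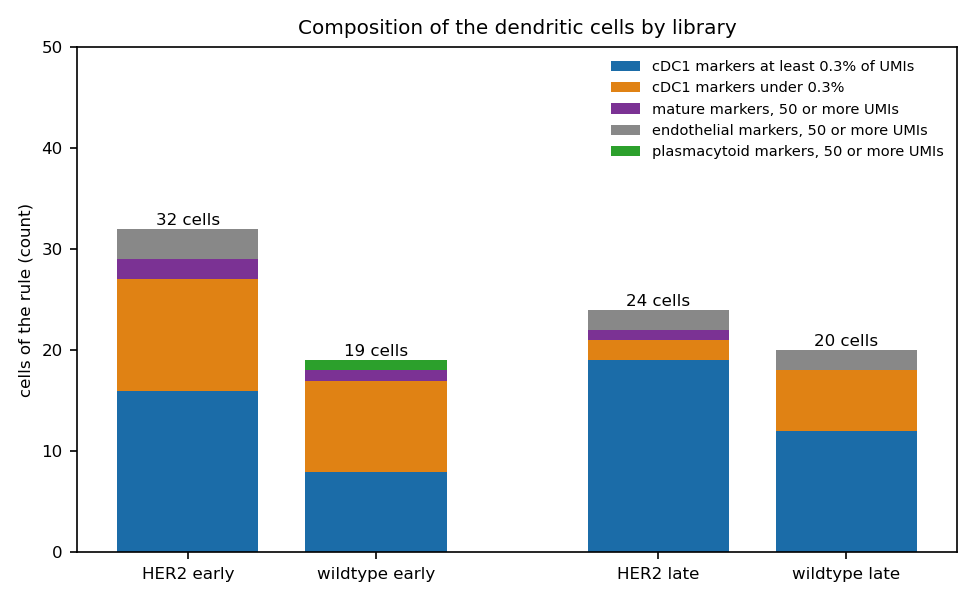
Number of dendritic cells by the rule in each library, HER2 left of wildtype at 16 weeks (early) and at 32 weeks (late), stacked by marker range. The cDC1-low cells number 11 in HER2 early, 9 in wildtype early, 2 in HER2 late and 6 in wildtype late, and wildtype early has no cell with endothelial markers.

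A few cells held many UMIs of cell cycle genes. Of the 95, 5 held 170 to 248 UMIs of 24 cell cycle genes, and no other cell more than 31. They numbered 0 of 32 in HER2 early, 2 of 19 in wildtype early, 2 of 24 in HER2 late and 1 of 20 in wildtype late, and 4 of the 5 were cDC1-high. Top2a, which untangles DNA at replication and mitosis, had 2.87, 220, 186 and 133 CPM in the same order. Hmgb2, a chromatin protein of cycling cells, had 129, 591, 612 and 482 CPM. All 3 cell cycle genes measured were at least 1.5-fold lower in HER2 early than in wildtype early, as were 8.71% of all genes measured.

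At 16 weeks 83 of 1217 genes (6.82%) were at least 2-fold higher in the dendritic cells of HER2 early than of wildtype early and 26 (2.14%) at least 2-fold lower, with a pseudocount of 10 CPM. Without the 7 cells with endothelial markers the count in either direction was 55, against 109 (8.96%) with them. At 1.5-fold 139 genes (11.4%) were higher and 106 (8.71%) lower, against 67 and 109 without those cells. In the named rule, which ranks genes seen in at least 5 cells by the bound of the interval nearest to 1, Kif5b, a kinesin heavy chain, had 224 CPM in HER2 early and 68.7 CPM in wildtype early, a ratio of 3.26 (1.86 to 6.09). Zfp36l1, an RNA-binding protein that speeds mRNA decay, had 390 and 169 CPM, a ratio of 2.30 (1.59 to 3.41). Both stayed past 2-fold without the cells with endothelial markers, at log2 1.31 and 1.11, and were the only 2 of the 10 named higher genes to do so.

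The other named higher genes were AY036118, Arhgap31, Lars2, Pafah1b1, Rtl8a, Hspa5, Tmem50a and Dstn, with log2 folds of 0.75 to 1.12. AY036118 had 2373 CPM in HER2 early and 1094 CPM in wildtype early, and log2 0.87 without the cells with endothelial markers. It overlaps ribosomal RNA sequence and, like Rtl8a and Tmem50a, has near-identical copies, so its counts are uncertain. Among genes lower in HER2 early, Adam23 had 86.0 CPM, against 229 CPM in wildtype early, a ratio of 0.376 (0.231 to 0.602). Lgals1, the lectin galectin-1, had 224 and 490 CPM, a ratio of 0.456 (0.336 to 0.617). Nfkbia, the inhibitor of NF-kB that NF-kB itself induces, had 272 and 499 CPM, a ratio of 0.546 (0.410 to 0.725), and in C1q-positive cells 207 and 344 CPM. Malat1, a nuclear long RNA, had 15870 and 23050 CPM. Pgls, Olfm1, Jpt1, Pid1, Actg1 and Ap2s1 were the others.

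At 32 weeks 48 of 1217 genes (3.94%) were at least 2-fold higher in HER2 late than in wildtype late and 29 (2.38%) lower, 77 (6.33%) in all and 84 without the cells with endothelial markers. Basp1, a membrane-anchored protein known from nerve endings, had 226 CPM in HER2 late (67 UMIs in 16 cells) and 31.7 CPM in wildtype late (5 UMIs in 3 cells), a ratio of 7.14 (2.91 to 22.7). It stayed apart within the cDC1-high cells, at log2 2.82. In C1q-positive cells Basp1 had 162 and 116 CPM and in alveolar macrophages 23.6 and 24.6 CPM. The heat shock gene Hspa1a had 156 and 19.0 CPM, a ratio of 8.17 (2.63 to 41.1), and its close paralog Hspa1b 115 and 19.0 CPM. Gapdh, a glycolytic enzyme, had 260 and 57.1 CPM, a ratio of 4.56 (2.28 to 10.4).

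Several of these genes differed in the same libraries outside the dendritic cells. The log2 fold of Gapdh in HER2 late over wildtype late was 2.01 in dendritic cells, 1.40 in C1q-positive cells and 1.22 in alveolar macrophages, and that of Hspa1b 2.10, 1.03 and 1.73. Tmsb10, an actin monomer binder, had 1423 CPM in HER2 late and 672 CPM in wildtype late (log2 1.07), with 0.87 in C1q-positive cells and 0.75 in alveolar macrophages. Ubb, a polyubiquitin gene, had 967 and 469 CPM (log2 1.03), with 0.86 and 0.81 in those cells. The cell types come from the same libraries, and what a library as a whole contributes was not tested. Gapdh, Tmsb10 and Ubb have near-identical copies elsewhere in the genome.

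Psmb9 had 460 CPM in the dendritic cells of HER2 late and 184 CPM in wildtype late, a ratio of 2.50 (1.66 to 3.87). Its log2 fold was 1.28 in dendritic cells, 1.04 in the cDC1-high cells, 0.61 in C1q-positive cells and 0.32 in alveolar macrophages. Epcam had 385 and 178 CPM, a ratio of 2.17 (1.43 to 3.41), with 42.4 and 13.1 CPM in C1q-positive cells and 172 and 151 CPM in alveolar macrophages. Txn1, thioredoxin, had 504 and 228 CPM and H3f3a, a histone variant gene, 1119 and 609 CPM. In C1q-positive cells and alveolar macrophages Txn1 was at log2 0.34 and 0.47 and H3f3a at 0.84 and 0.61.

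Among genes lower in HER2 late, Mgl2 had 226 CPM, against 679 CPM in wildtype late, a ratio of 0.334 (0.242 to 0.457). HER2 late had 2 cDC1-low cells and wildtype late 6, and within the cDC1-high cells Mgl2 turned to log2 0.10, with 255 CPM in HER2 late and 238 CPM in wildtype late. Within the cDC1-low cells it was at log2 -1.62, with 567 and 1768 CPM. Cd209a, another cDC2 gene but part of the rule, had 108 and 400 CPM. Dapk1, a death-associated kinase, had 60.8 and 197 CPM, a ratio of 0.309 (0.163 to 0.571), and log2 -1.47 within the cDC1-high cells. Ctsb, the lysosomal protease cathepsin B, had 115 and 285 CPM, a ratio of 0.403 (0.25 to 0.643). St13, Taok3, Arhgap45, Prpf38b, Ndufb1-ps, Akap13 and Laptm5 were the others, with log2 folds of -1.38 to -0.82.

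**Figure D4:**
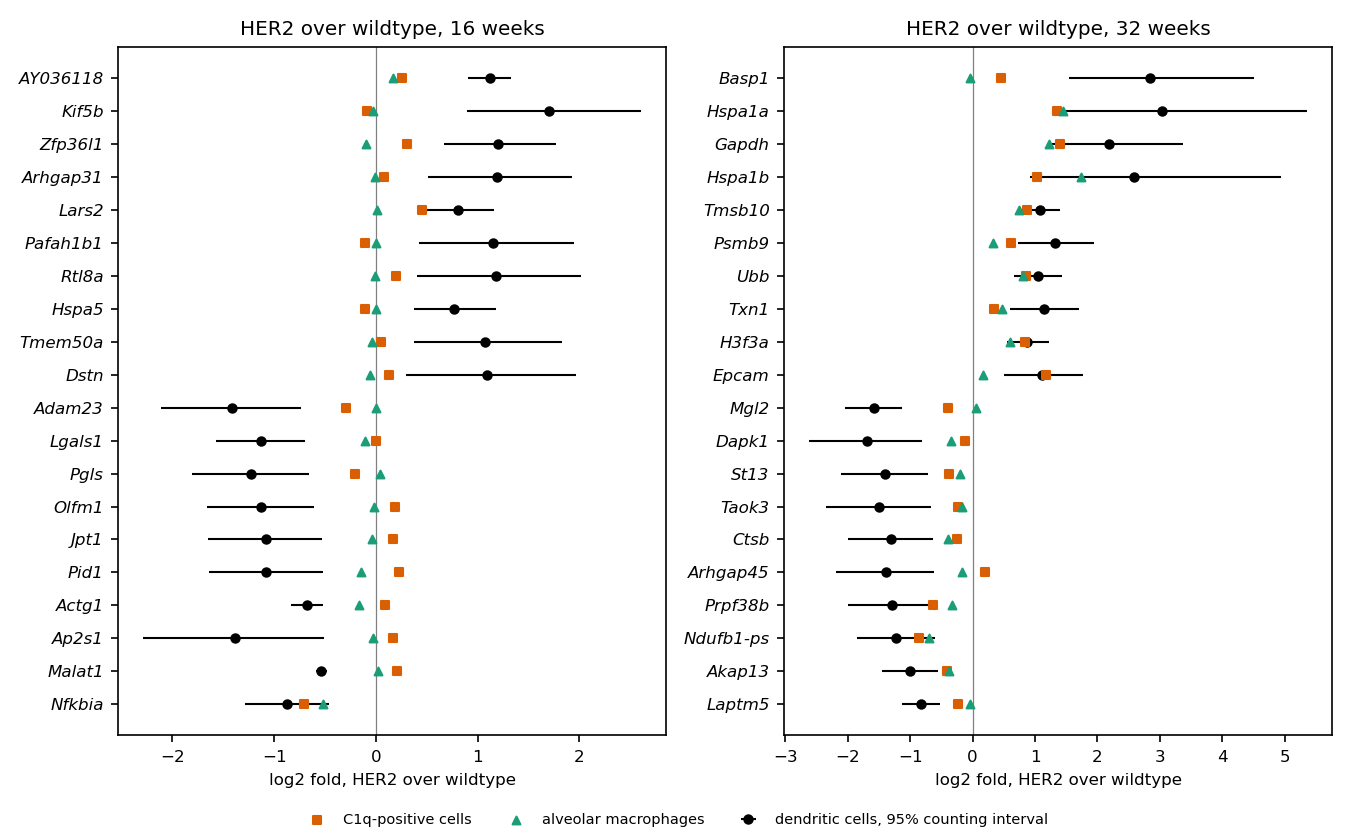
Log2 fold of the 20 named genes at 16 weeks (left) and at 32 weeks (right), HER2 over wildtype. Black points are the ratio in the dendritic cells with its exact 95% counting interval, and orange squares and green triangles the fold with a pseudocount of 10 CPM in C1q-positive cells and alveolar macrophages of the same libraries. At 32 weeks Gapdh, Hspa1a, Hspa1b, Tmsb10 and Ubb lie right of 0 in all 3, while Basp1 is at -0.04 in alveolar macrophages.

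Of the fixed pathway lists, immediate early and dissociation stress genes stood furthest from the median of all genes at 32 weeks among the lists of 10 or more measured genes. Of 18 measured, 11 were at least 1.5-fold higher in HER2 late than in wildtype late and 1 lower, with a median log2 fold of 0.68, beside 12.7% higher and 9.86% lower and a median of 0.06 over all genes. Without the cells with endothelial markers the counts were also 11 and 1. The chaperones Hspa8, Dnaja1 and Hspe1 had 1639, 568 and 210 CPM in HER2 late, against 1021, 298 and 114 CPM in wildtype late. Junb had 301 and 159 CPM and Jund 1119 and 698 CPM. Dusp1, a phosphatase induced with these genes, went the other way, with 105 CPM in HER2 late and 216 CPM in wildtype late. At 16 weeks 3 of the 18 were higher and 1 lower, with a median of 0.13, beside -0.08 over all genes. The wildtype late library was the lowest of the 4 for Hspa1a, at 19.0 CPM, with 221, 169 and 156 CPM in HER2 early, wildtype early and HER2 late.

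Klf2 and Jun were the 2 largest differences of that list at 16 weeks, and the cells with endothelial markers touched both. Klf2, a flow-responsive transcription factor of endothelium, had 476 CPM in HER2 early and 59.5 CPM in wildtype early, a log2 fold of 2.81 that was 0.48 without those cells. Jun had 459 and 101 CPM, with log2 2.08 and 0.92 without them.

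**Figure D5:**
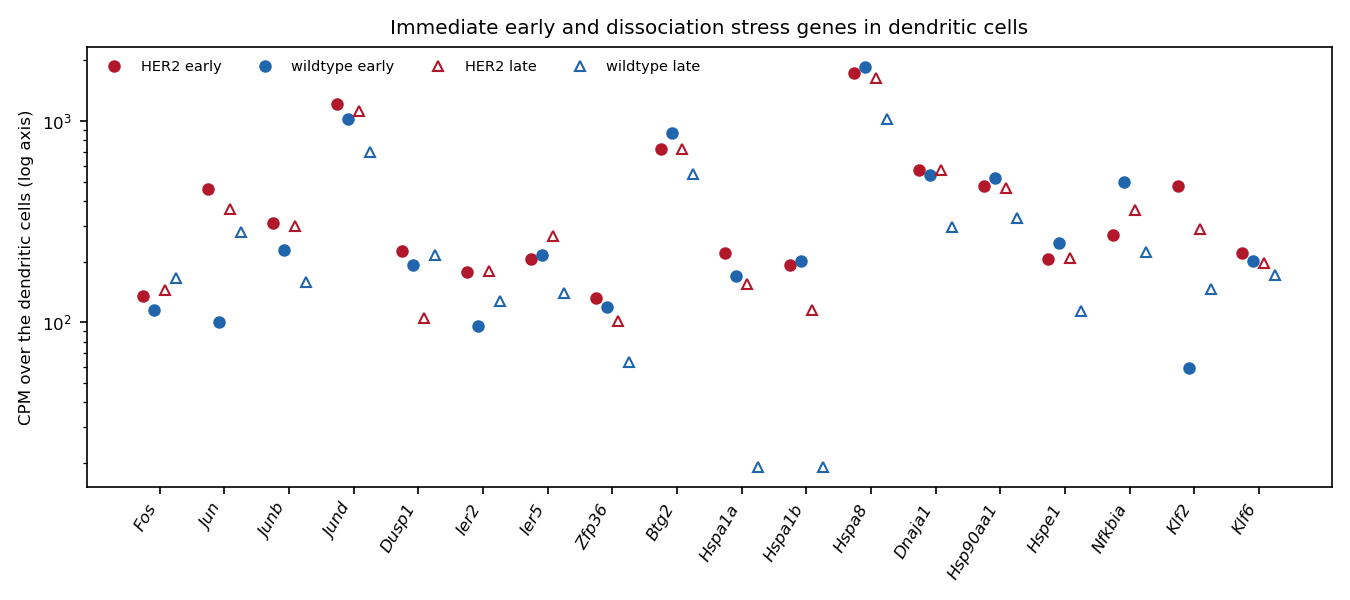
CPM over the dendritic cells for the 18 measured immediate early and dissociation stress genes in HER2 early, wildtype early, HER2 late and wildtype late, on a log axis. Open blue triangles (wildtype late) are the lowest of the 4 for Hspa1a, Hspa1b, Hspa8, Dnaja1 and Hspe1.

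The lists are read beside the shares of all genes past 1.5-fold, which were 11.4% higher and 8.71% lower at 16 weeks and 12.7% higher and 9.86% lower at 32 weeks, so that 1 to 3 of 12 genes is near the background. Of 12 measured genes of MHC class II and its loading, 0 were at least 1.5-fold higher or lower in HER2 early than in wildtype early, with a median log2 fold of -0.20, which was 0.08 without the cells with endothelial markers. At 32 weeks 0 were higher and 2 lower (Ctss and Ciita), with a median of -0.16. H2-Ab1 had 8564, 11510, 8453 and 10380 CPM in HER2 early, wildtype early, HER2 late and wildtype late. H2-Aa had 9854, 11690, 8122 and 6152 CPM, so the class II chains did not share one order. Of 12 genes of MHC class I and cross-presentation, 0 were higher and 1 lower (Psmb9) at 16 weeks, with a median of 0.04, and 3 were higher and 0 lower at 32 weeks, with a median of 0.37. The 3 were Psmb9, Psmb10 and H2-D1, the last with 3136 CPM in HER2 late and 1985 CPM in wildtype late and with near-identical copies.

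Lists of identity genes overlap with the genes that chose or divided the cells, and counts of 1 of 11 or 1 of 14 are again near the shares of all genes. Of 11 cDC1 markers, 0 were higher and 1 lower (Xcr1, 123 and 238 CPM) at 16 weeks, and 1 was higher (Cadm1, 193 and 102 CPM) and 0 lower at 32 weeks, in HER2 over wildtype. Of 6 cDC2 markers, 1 was higher at 16 weeks (Klf4, 224 and 54.9 CPM) and 3 were lower at 32 weeks (Cd209a, Mgl2 and Tmem176b), with a median log2 fold of -0.61. Klf4 within the cDC1-high cells was at log2 -0.33 at 16 weeks. Of 7 dendritic cell transcription factors, 2 were higher (Klf4 and Tcf4) and 1 lower (Spi1) at 16 weeks, and 1 was higher (Id2) and 1 lower (Runx3) at 32 weeks. Without the cells with endothelial markers 1 was higher (Runx3) and 0 lower at 16 weeks, and 0 were higher and 2 lower (Klf4 and Runx3) at 32 weeks, with Id2 at log2 0.57. Klf4 at 16 weeks was then at log2 -0.19, so 0 of 6 cDC2 markers lay past 1.5-fold. Irf8 had 762 and 810 CPM in HER2 early and wildtype early and 1095 and 1110 CPM in HER2 late and wildtype late. Of 14 actin and migration genes, 0 were higher and 1 lower (Actg1) at 16 weeks, and 2 were higher (Tmsb10 and Vim) and 1 lower (Cotl1) at 32 weeks.

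Genes on the same side of both wildtype libraries were also sought. Of the 1217 genes, 198 (16.3%) had higher levels in each HER2 library than in either wildtype library and 215 (17.7%) lower, against 169 and 194 without the cells with endothelial markers. These counts are a description from which nothing is read, and the genes named next were picked for the pattern. The 8 with the largest smallest ratio on the higher side were Sema3c, Itga1, Ly6c1, Clic5, Pecam1, Scn7a, Cdh5 and Ramp2, and 93.1 to 100% of their UMIs lay in the 7 cells with endothelial markers. Pecam1, an endothelial adhesion molecule, had 275 and 176 CPM in HER2 early and HER2 late, against 18.3 and 76.1 CPM in wildtype early and wildtype late, and without those cells 0, 3.89, 18.3 and 0 CPM in that order. On the lower side stood Wfdc17, Rnd3, Mcemp1, Dock8, Luc7l3, Hnrnpm, Rwdd1 and Ndufa3. Wfdc17, a secreted protein of myeloid cells, had 63.1 and 54.1 CPM in HER2 early and HER2 late, against 229 and 171 CPM in wildtype early and wildtype late. Without the cells with endothelial markers it had 79.5 and 62.3 CPM, against 229 and 176 CPM. Dock8, which dendritic cells need to migrate through tissue, had 63.1 and 81.1 CPM, against 147 and 133 CPM. Within cells with Cd207 UMIs Wfdc17 had 36.9, 38.6, 35.0 and 36.7 CPM in HER2 early, wildtype early, HER2 late and wildtype late. Cells without Cd207 UMIs had 140, 506, 283 and 384 CPM of Wfdc17 in that order, from 13, 8, 4 and 8 cells. Mcemp1 was also higher in cells without Cd207 UMIs in 4 of 4 libraries. What the mix of cells contributes was not tested.

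Between ages, 32 of 1217 genes (2.63%) were at least 2-fold apart in late over early HER2 cells, and 147 (12.1%) in late over early wildtype cells. In HER2 cells 15 genes (1.23%) were at least 2-fold higher late and 17 (1.4%) lower, and at 1.5-fold 65 (5.34%) and 69 (5.67%). In wildtype cells 94 (7.72%) were at least 2-fold higher late and 53 (4.35%) lower, and at 1.5-fold 174 (14.3%) and 163 (13.4%). Without the cells with endothelial markers 32 genes were at least 2-fold apart in HER2 cells and 114 in wildtype cells. These comparisons share their libraries with the ones above. In wildtype cells Hspa1b had 19.0 CPM late and 201 CPM early, Gapdh 57.1 and 288 CPM and Tmsb10 672 and 1566 CPM. Psmb9 had 184 and 504 CPM and H3f3a 609 and 1374 CPM. All 5 genes were also lower late in the alveolar macrophages and in the C1q-positive cells of these libraries. Past 1.5-fold were 4 and 5 of them, in that order, and what a library as a whole contributes was not tested. Dstn, which severs actin filaments, had 349 CPM in wildtype late and 77.8 CPM in wildtype early, and AY036118 2968 and 1094 CPM. In HER2 cells H2afz, a histone variant gene, had 1183 CPM late and 536 CPM early, beside 2 and 0 cells with 170 or more cell cycle UMIs. Dnase1l3, a secreted nuclease, had 260 and 126 CPM, and its log2 fold was 0.28 within the cDC1-high cells. Zfp36l1 had 186 CPM in HER2 late and 390 CPM in HER2 early, and Runx1, a haematopoietic transcription factor, 74.4 and 166 CPM.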

How the data were processed

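The authors deposited raw UMI counts per gene and barcode from 4 libraries of sorted lung macrophages, 1 per group. Cell Ranger 5.0.1 and mm10 were used per the submitters' processing notes, while Cell Ranger 4 is named per the file headers. A second kind of deposited table, averages over alveolar macrophages, was not used here. The members and gene lists were chosen with earlier results of these data known.

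UMIs were summed over the dendritic cells of each library and expressed as CPM with Python 3.11.15, NumPy 2.4.6, pandas 2.3.3 and SciPy 1.17.1. C1q-positive cells had at least 5 C1q UMIs and under 0.4% of alveolar macrophage genes, and alveolar macrophages at least 0.4% and fewer than 5 C1q UMIs. Ratios carry exact conditional binomial 95% intervals and shares exact Clopper-Pearson 95% intervals, and both cover counting error only. Only genes whose mean over the 4 libraries reached 100 CPM were compared, and log2 folds used a pseudocount of 10 CPM. With 1 library per group nothing was tested.

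For HER2 over wildtype the text names 10 genes each way, ranked by the interval bound nearest to 1, with UMIs in at least 5 cells of the higher library and under 50% of that library's UMIs in its 3 richest cells. For late over early it draws on 5 each way, and for both stages on 8 each way by the smallest cross ratio. Mitochondrial, ribosomal protein, haemoglobin, immunoglobulin and unnamed genes, Xist and Y-linked genes were left out of rankings, and genes of the fixed lists may be named in addition. Limits for marker ranges were set after seeing the data. Near-identical copies were sought with BLAST 2.17.0 among transcripts of GENCODE on GRCm38, over the last 300 bases at 95% identity or more. The fold calculation was tested on simulated counts. Alternatives covered the filters, the scaling, free RNA, the pseudocount and the choice of cells.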

Additional observations from a re-analysis of the deposited data

Results flagged for a closer look

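Of the named genes, 6 had HER2 over wildtype log2 folds of opposite sign at the 2 stages and a counting interval that excluded 1 at both. Other named genes also changed sign, Zfp36l1 and Basp1 among them, but with an interval that included 1 at a stage. The difference between stages was not tested, since each stage has 1 library per genotype. AY036118 was at 1.11 at 16 weeks and -0.41 at 32 weeks. Dstn was at 1.00 and -0.98 and Actg1, a cytoplasmic actin gene, at -0.68 and 0.29. H3f3a was at -0.47 and 0.87, Nfkbia at -0.85 and 0.68, and Psmb9 at -0.74 and 1.28. Psmb9 had 298 CPM in HER2 early, 504 CPM in wildtype early, 460 CPM in HER2 late and 184 CPM in wildtype late, so wildtype late was the lowest and wildtype early the highest of the 4. H3f3a had 1119 CPM in HER2 late and 609 CPM in wildtype late, and wildtype early had 1374 CPM.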

How the results depend on the processing

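Counts of genes past a fold depended mainly on the filter. At 50 CPM, 200 CPM and with no filter, genes at least 2-fold apart numbered 297, 38 and 1855 for HER2 over wildtype at 16 weeks and 236, 20 and 1969 at 32 weeks. For late over early they numbered 118, 15 and 1029 in HER2 cells and 403, 55 and 2381 in wildtype cells. At 16 weeks the count was 55 without the cells with endothelial markers and 45 without cells with markers of any other type, alternatives chosen after seeing the data. At 32 weeks it was 152 with at least 5 rule UMIs per cell and 142 with equal weight for cells with and without Cd207. In late over early HER2 cells it was 116 with at least 5 rule UMIs and 59 in cDC1-high cells only. Leaving out cells with 3 or more cell cycle UMIs kept 53 of 95 cells and gave 218 at 32 weeks, and 94 in HER2 and 222 in wildtype cells for late over early.

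List medians for HER2 over wildtype moved as follows. At 16 weeks, without those cell cycle cells, they were 0.92 for cDC1 markers, -0.82 for cDC2 markers, 0.15 for MHC class II and 0.73 for C-type lectins. In cDC1-high cells only they were 1.15 for cDC2 markers and 0.13 for MHC class II. At 32 weeks the cDC2 median was -1.51 with at least 5 rule UMIs, -1.29 without cells of another type and -1.16 at 200 CPM, and the C-type lectin median -0.84 at 50 CPM and -1.54 at 200 CPM. Of 720 folds of named genes under the alternatives, 670 stayed within their margin, 49 moved and 1 reversed, Mgl2 at 32 weeks to 0.10 in cDC1-high cells only. The cause of these moves was not tested. Under median-of-ratios scaling the median of all genes was -0.10 at 16 weeks and 0.14 at 32 weeks, beside -0.08 and 0.06.

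The share ratios ran over 1.10 to 2.13 at 16 weeks and 0.588 to 1.24 at 32 weeks under 10 alternatives each. No paired analysis was possible because each group has 1 library. Depth limits all statements: 3 UMIs amount to 8.60 to 19.0 CPM, and the 2 cDC1-low cells of HER2 late hold 12339 UMIs.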

Other observations

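Some receptor genes of the lists, picked here after their values were seen, divided between the marker ranges as well. Tlr3, the receptor for double-stranded RNA and one of the cDC1 markers, had 203, 154, 251 and 314 CPM in the cDC1-high cells of HER2 early, wildtype early, HER2 late and wildtype late, against 54.8, 41.8, 0 and 22.7 CPM in the cDC1-low cells. Tgfbr1, a receptor for transforming growth factor beta, had 85.1, 48, 68.1 and 64.9 CPM, against 265, 272, 162 and 227 CPM. Csf2rb, the shared chain of the receptors for GM-CSF and interleukin 3 and 5, had 26.2, 28.8, 46.8 and 43.3 CPM, against 155, 125, 162 and 90.7 CPM. In the cDC1-low cells of HER2 late the values of Tgfbr1 and Csf2rb are 2 UMIs each, under the floor of 3 UMIs. Ccr2, which draws precursors out of the blood stream, was on no fixed side, with 452, 211, 434 and 476 CPM in the cDC1-high cells, against 219, 366, 324 and 227 CPM in the cDC1-low cells.

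The cell with plasmacytoid dendritic cell markers, in wildtype early, held 8278 UMIs, of which 165 were of those markers and 6 of Cd209a, the gene that met the rule. It had 0.640% of UMIs in MHC class II genes. Bst2, one of those markers and an interferon response gene, had 77.4 CPM in HER2 early and 279 CPM in wildtype early over all members, this cell included. In the same order the cDC1-high cells, which leave it out, had 45.8 and 115 CPM. The cDC1-low cells had 91.3 and 94.0 CPM, so the 279 CPM does not describe either range.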
